A study of Mus musculus with 6 samples.

Results

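The respiratory chain of the inner mitochondrial membrane is built from complexes I to IV, which pass electrons from NADH and succinate to oxygen and, complex II excepted, pump protons, and complex V, the ATP synthase, which uses the proton gradient. Most subunits are encoded in the nucleus and a smaller set in mitochondrial DNA, so each complex other than complex II needs products of both genomes. Kidney tubule epithelium is known for its dense mitochondria and its reliance on this pathway for solute transport. The genes described here are the nuclear-encoded ones, chosen by name: rows naming a single gene that starts with Nduf, Uqcr, Atp5 or Cox4 to Cox8, or that is Sdha, Sdhb, Sdhc, Sdhd or Cyc1, without names containing -ps. The rule found 90 of the 37757 rows; the authors tested 83 of the 90 and left 7 untested. The prefixes also bring in 9 genes grouped here by name as assembly factors (Ndufaf1 to Ndufaf7, Atp5s and Atp5sl). Assembly factors help build a complex without being part of it, a role not examined here for each gene, Atp5s included. The 9 are kept apart below, leaving 81 subunits.

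RNA was sequenced from cultured kidney epithelial cells of C57/Bl6J mice aged 8 weeks with the genotype Bim-/- Bmf-/-, which all 6 libraries share. Bim and Bmf are proteins that promote cell death, and no cells with intact copies were analysed here. In 3 libraries the cells were attached, and in 3 they were kept in suspension for 4 h, a state the sample titles call anoikis. Each value below is FPKM, a fragment count scaled to transcript length and library size. The authors give 1 such value for each condition, so no spread between libraries, standard deviation or depth can be given, and whether the libraries came from separate cultures or animals is not stated. A gene is called higher or lower where the q of the authors' test is below 0.05, and log2 fold changes are suspended over attached throughout.

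Nuclear-encoded respiratory chain transcripts were slightly lower in suspension, and nearly all leaned the same way. Of 83 tested members 43 fell, 2 rose and 38 were not called per the authors' deposited table. Among all tested rows naming 1 gene, 26.3% were called lower and 24.8% higher. Most members are abundant, and among tested rows with a mean of at least 20 FPKM the shares were 37.8% lower and 21.6% higher. Of the 71 members above that level 39 fell and 0 rose (2 of the 83 had an unadjusted p below 0.05 with a higher value, both below that level). A log2 fold change under 0 was listed for 77 of 83 members, against 51.8% of all tested rows and 62.6% of those of at least 20 FPKM. The median member stood at a log2 fold change of -0.33, or -20.4%, with quartiles of -0.43 and -0.22. For tested rows that reached 1 FPKM in both conditions the median was -0.11, so the members' median was -0.22 relative to it. For tested rows with a mean of at least 20 FPKM the median was -0.17, closer to that of the members. Only Ndufaf4 fell by over 2-fold and only Cox6b2 rose by over 2-fold. The p-values of the authors' table imply a standard error of log2 with a median of 0.13 over the members (quartiles 0.12 and 0.17), so most single changes are only a few times their error. Members are not independent replicates of the condition, and no test over them was run.

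**Figure D1:**
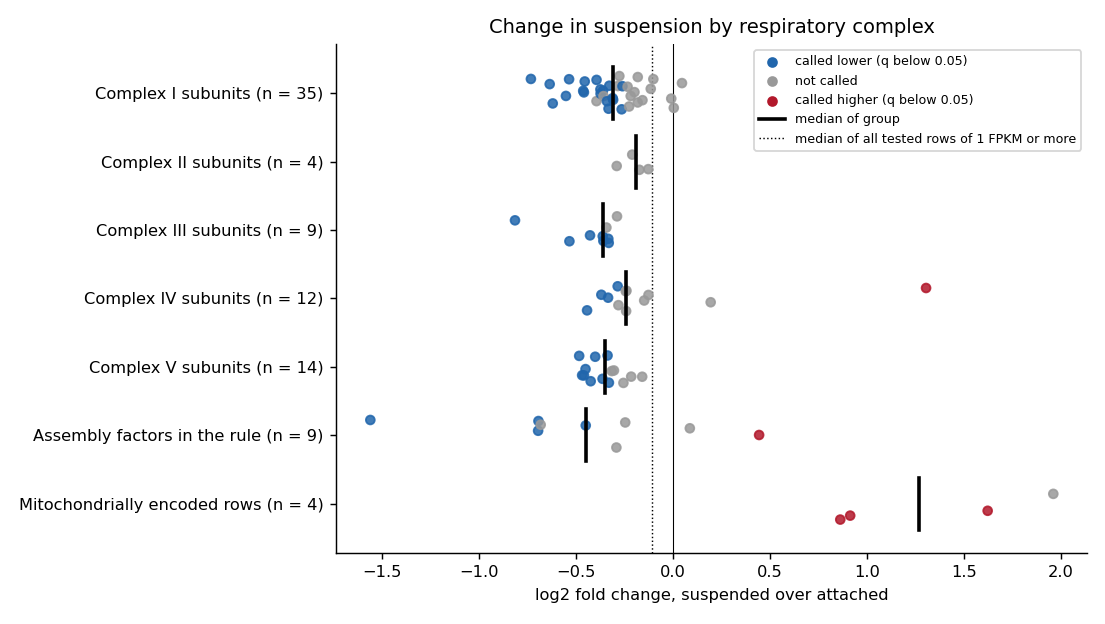
Each point is a tested row of the authors' deposited table, placed by log2 of suspended over attached FPKM, grouped by complex and coloured by call; thick black bars mark group medians and the dotted line the median of all tested rows of at least 1 FPKM. The 4 complex II points are all grey, the complex III and V points all lie left of 0, and the 4 mitochondrially encoded rows lie right of it.

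The 5 complexes overlapped widely in their changes. In complex III, 7 of 9 tested subunits were called lower, with a median log2 fold change of -0.36 and a range from -0.82 to -0.29. In complex V it was 9 of 14, with a median of -0.35 and a range from -0.48 to -0.16. Every tested subunit of these 2 complexes lay under 0. Complex I had 19 of 35 called lower, a median of -0.31 and a range from -0.73 to 0.05. Complex IV had 4 of 12 called lower and 1 called higher, a median of -0.24 and a range from -0.44 to 1.30. Complex II had 0 of 4 called by the authors' test (Cuffdiff), 2 of 4 at an unadjusted p below 0.05, a median of -0.19 and a range from -0.29 to -0.13. The medians of the 5 complexes lay between -0.36 and -0.19. Relative to the median of tested rows reaching 1 FPKM in both conditions, complexes I, II and IV stood at -0.20, -0.085 and -0.14. Tested rows with a mean of at least 20 FPKM had a lower median of -0.17, near that of complex II. The shares called lower were 77.8% in complex III, 64.3% in V, 54.3% in I, 33.3% in IV and 0% in II. Among all tested rows with a mean of at least 20 FPKM it was 37.8%, and complex II lay below that share. Complexes I and IV include subunits with a mean under 20 FPKM, such as Cox7a1 and Cox6b2. Their shares are therefore not filtered like that of these rows. No test of a difference between complexes was made.

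Complex I takes electrons from NADH and hands them to ubiquinone. Its core subunits, which include those holding the flavin and the iron-sulphur clusters, do this transfer, and 6 of 7 nuclear-encoded ones fell, with a median log2 fold change of -0.46. The share of these 7 that fell was 85.7%, against 37.8% of all tested rows of at least 20 FPKM. Ndufs7, next to the ubiquinone site, went from 74.3 to 47.8 FPKM (log2 -0.64, q = 0.000185) per the authors' deposited table. Ndufs3, a core subunit of the peripheral arm, went from 38.2 to 24.9 FPKM (q = 0.00637) per the authors' deposited table. Ndufs8, which holds a pair of clusters, went from 55.5 to 40.3 FPKM (q = 0.00128) per the authors' deposited table. These were the core subunits with the lowest log2 fold changes. The large core subunit Ndufs1 was listed by the authors' deposited table at 38.9 attached and 28.4 FPKM suspended (q = 0.0193). For Ndufv2 the values were 63.3 and 50.4 FPKM (q = 0.0172) per the authors' deposited table. Ndufv1, the flavin subunit that binds NADH, was not called, at 50.1 and 44.1 FPKM (q = 0.207) per the authors' deposited table.

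The accessory subunits of complex I surround this core, and 13 of 28 tested ones fell while 0 rose (0 also at an unadjusted p below 0.05), with a median log2 fold change of -0.28. The share that fell was 46.4%, against 37.8% of all tested rows of at least 20 FPKM. Ndufb10, in the membrane arm, was the lowest of the complex, going from 89.4 to 53.8 FPKM (log2 -0.73, q = 0.000185) per the authors' deposited table. Its row covers chromosome 17, positions 24722060 to 24724478 (mm10). Ndufb7, also of the membrane arm, fell from 89.7 to 61.9 FPKM (q = 0.000185) per the authors' deposited table. Of 8 Ndufb subunits 4 fell, the other two being Ndufb4 (19.4 to 13.2 FPKM, q = 0.00268) and Ndufb3 (67.0 to 48.6 FPKM, q = 0.000676) per the authors' deposited table. Ndufb6 belongs to the same arm and was level, at 48.1 and 48.3 FPKM (q = 0.99) per the authors' deposited table. Subunits of 1 arm thus spanned nearly the range of the whole complex. Of 14 tested Ndufa subunits 7 fell, with log2 fold changes between -0.39 (Ndufa3, 278 to 211 FPKM, q = 0.0132) and -0.26 (Ndufa10, 51.1 to 42.7 FPKM, q = 0.0392) per the authors' deposited table. Between them lay Ndufa12 (57.9 to 44.7 FPKM, q = 0.0198), Ndufa11 (12.9 to 10.3 FPKM, q = 0.0249) and Ndufa1 (144 to 116 FPKM, q = 0.0299) per the authors' deposited table. Ndufa13 (59.6 to 48.1 FPKM, q = 0.0264) and Ndufa9 (64.0 to 53.3 FPKM, q = 0.0418) completed the 7 per the authors' deposited table. The 7 thus covered a narrow range of change at levels that differed widely. Ndufa7 stood at 185 and 184 FPKM (q = 0.954) per the authors' deposited table. Ndufs6 (83.3 to 65.8 FPKM, q = 0.0181) and Ndufv3 (77.2 to 59.5 FPKM, q = 0.0313) completed the accessory subunits that fell per the authors' deposited table. Ndufc2, the subunit with the highest log2 fold change of the complex, was not called at 109 and 112 FPKM (q = 0.783) per the authors' deposited table. The most abundant row with a complex I name, Ndufa4, which is now usually counted with complex IV, stood at 356 and 319 FPKM (q = 0.225) per the authors' deposited table. Its paralogue Ndufa4l2, known to be induced by hypoxia, was not tested and was listed at 0.0140 and 0 FPKM per the authors' deposited table.

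Complex II, succinate dehydrogenase, also belongs to the TCA cycle and is the complex made only of nuclear products. The flavin subunit Sdha stood at 98.8 attached and 85.3 FPKM suspended (q = 0.0901) per the authors' deposited table. The iron-sulphur subunit Sdhb, the least abundant of the 4, stood at 29.5 and 26.1 FPKM (q = 0.261) per the authors' deposited table. Of the membrane anchors, Sdhc had 92.9 and 75.9 FPKM (q = 0.0854) and Sdhd 100 and 91.9 FPKM (q = 0.341) per the authors' deposited table. All 4 were lower in suspension without passing the test, which does not show that they were unchanged.

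Complex III passes electrons from ubiquinol to cytochrome c. Cyc1, cytochrome c1, which makes the last transfer, had the lowest log2 fold change of all subunits, going from 116 to 66.1 FPKM (log2 -0.82, q = 0.000185) per the authors' deposited table. Its row covers chromosome 15, positions 76343523 to 76345934 (mm10). Uqcrfs1, the Rieske iron-sulphur protein, fell less, from 137 to 108 FPKM (log2 -0.33, q = 0.00649) per the authors' deposited table. The subunits with redox centres thus differed in the size of their change. The large core proteins face the matrix, and Uqcrc1 went from 111 to 76.7 FPKM (q = 0.000185) and Uqcrc2 from 108 to 84.3 FPKM (q = 0.00213) per the authors' deposited table. Among the small subunits Uqcr11 fell from 143 to 106 FPKM (q = 0.00213) per the authors' deposited table. Uqcr10 (205 to 163 FPKM, q = 0.014) and Uqcrq (201 to 157 FPKM, q = 0.0353) were the most abundant subunits, and both fell per the authors' deposited table. Uqcrh, the hinge protein, was not called at 80.9 and 63.7 FPKM (q = 0.102) per the authors' deposited table. Uqcrb was not called either, at 62.8 and 51.4 FPKM (q = 0.359) per the authors' deposited table. Leaving Cyc1 and Uqcrc1 aside, the log2 fold changes of this complex lay between -0.43 and -0.29.

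Complex IV, cytochrome c oxidase, reduces oxygen, and several of its nuclear subunits exist as a general form and a tissue-restricted form. Of the general forms, Cox7b fell from 119 to 87.6 FPKM (log2 -0.44, q = 0.000355) per the authors' deposited table. Cox7a2 fell from 147 to 114 FPKM (q = 0.00295) and Cox5a from 170 to 135 FPKM (q = 0.0271) per the authors' deposited table. Cox8a, a highly abundant subunit, fell from 482 to 395 FPKM (q = 0.0161) per the authors' deposited table. The 4 subunits that fell thus included both abundant and less abundant ones. Cox6b1 had the highest level of the complex and lay just outside the threshold, at 484 and 410 FPKM (q = 0.051), as did Cox5b at 90.7 and 74.6 FPKM (q = 0.0512) per the authors' deposited table. Cox6a1 (411 and 371 FPKM, q = 0.25), Cox6c (220 and 186 FPKM, q = 0.253) and Cox7c (log2 -0.13, q = 0.481) were not called per the authors' deposited table. Cox7a2l, a relative of Cox7a2 that joins complexes III and IV into supercomplexes, was listed higher without a call, at 142 and 162 FPKM (q = 0.123) per the authors' deposited table.

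Among the tissue-restricted forms, Cox6b2, known as the testis form of subunit 6b, was the subunit that rose. The authors' deposited table put it at 4.95 FPKM attached and 12.2 FPKM suspended, 2.47-fold higher (q = 0.000185). Its row covers chromosome 7, positions 4751792 to 4753094 (mm10). Cox6b1 and Cox6b2 together summed to 489 FPKM attached and 422 suspended, and Cox6b2 made up 1.01% and 2.90% of these sums per the authors' deposited table. The rise of the minor form was thus small beside the level of the general form. Cox7a1, the heart and muscle form of subunit 7a, was not called at 5.19 and 4.38 FPKM (q = 0.576) per the authors' deposited table. The other restricted forms Cox4i2, Cox6a2, Cox7b2, Cox8b and Cox8c were not tested and were listed at no more than 0.0895 FPKM in either condition per the authors' deposited table. With Ndufa4l2 and Atp5l2 (listed at 0 in both conditions) they make up the 7 members without a test.

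Complex V consists of the catalytic F1 head, a stalk and the membrane part Fo. In the F1 part, 4 of 5 tested subunits fell (80.0%, against 37.8% of all tested rows of at least 20 FPKM). Atp5b, the catalytic beta subunit, had the highest FPKM of all members and fell from 676 to 512 FPKM (log2 -0.40, q = 0.000982) per the authors' deposited table. Atp5a1, the alpha subunit, fell from 403 to 300 FPKM (q = 0.000185) per the authors' deposited table. The central stalk subunits Atp5c1 (170 to 134 FPKM, q = 0.00412) and Atp5d (210 to 153 FPKM, q = 0.00875) fell as well, and Atp5e was not called (262 and 226 FPKM, q = 0.111) per the authors' deposited table. The alpha, beta, gamma and delta subunits thus changed by similar amounts, with log2 fold changes from -0.45 to -0.34.

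In Fo and the other membrane-side subunits, 5 of 9 fell (55.6%, against the same 37.8%). The c ring, which turns as protons pass, is built from a mature protein that Atp5g1, Atp5g2 and Atp5g3 all encode. Atp5g3, the main source, fell from 338 to 244 FPKM (q = 0.000185) per the authors' deposited table. Atp5g1 fell from 46.0 to 32.9 FPKM (q = 0.0121), and Atp5g2 was not called at 57.2 and 51.2 FPKM (q = 0.401) per the authors' deposited table. The 3 genes summed to 441 FPKM attached and 328 suspended, of which Atp5g3 gave 76.6% and 74.4% per the authors' deposited table. Thus the make-up of this set hardly shifted while its sum was lower. Atp5j (216 to 157 FPKM, q = 0.00501), Atp5k (149 to 116 FPKM, q = 0.0179) and Atp5h (97.3 to 77.3 FPKM, q = 0.0215) fell per the authors' deposited table. Atp5f1, Atp5l and Atp5j2 lay just outside the threshold, with log2 fold changes of -0.32, -0.31 and -0.26 and q of 0.055, 0.0687 and 0.0665 per the authors' deposited table. Of the 5 tested subunits of complex V that overlap no other protein-coding gene and have no near-identical pseudogene copy, 2 (40.0%) fell, near the 37.8% of all tested rows of at least 20 FPKM, with a median log2 fold change of -0.26.

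**Figure D2:**
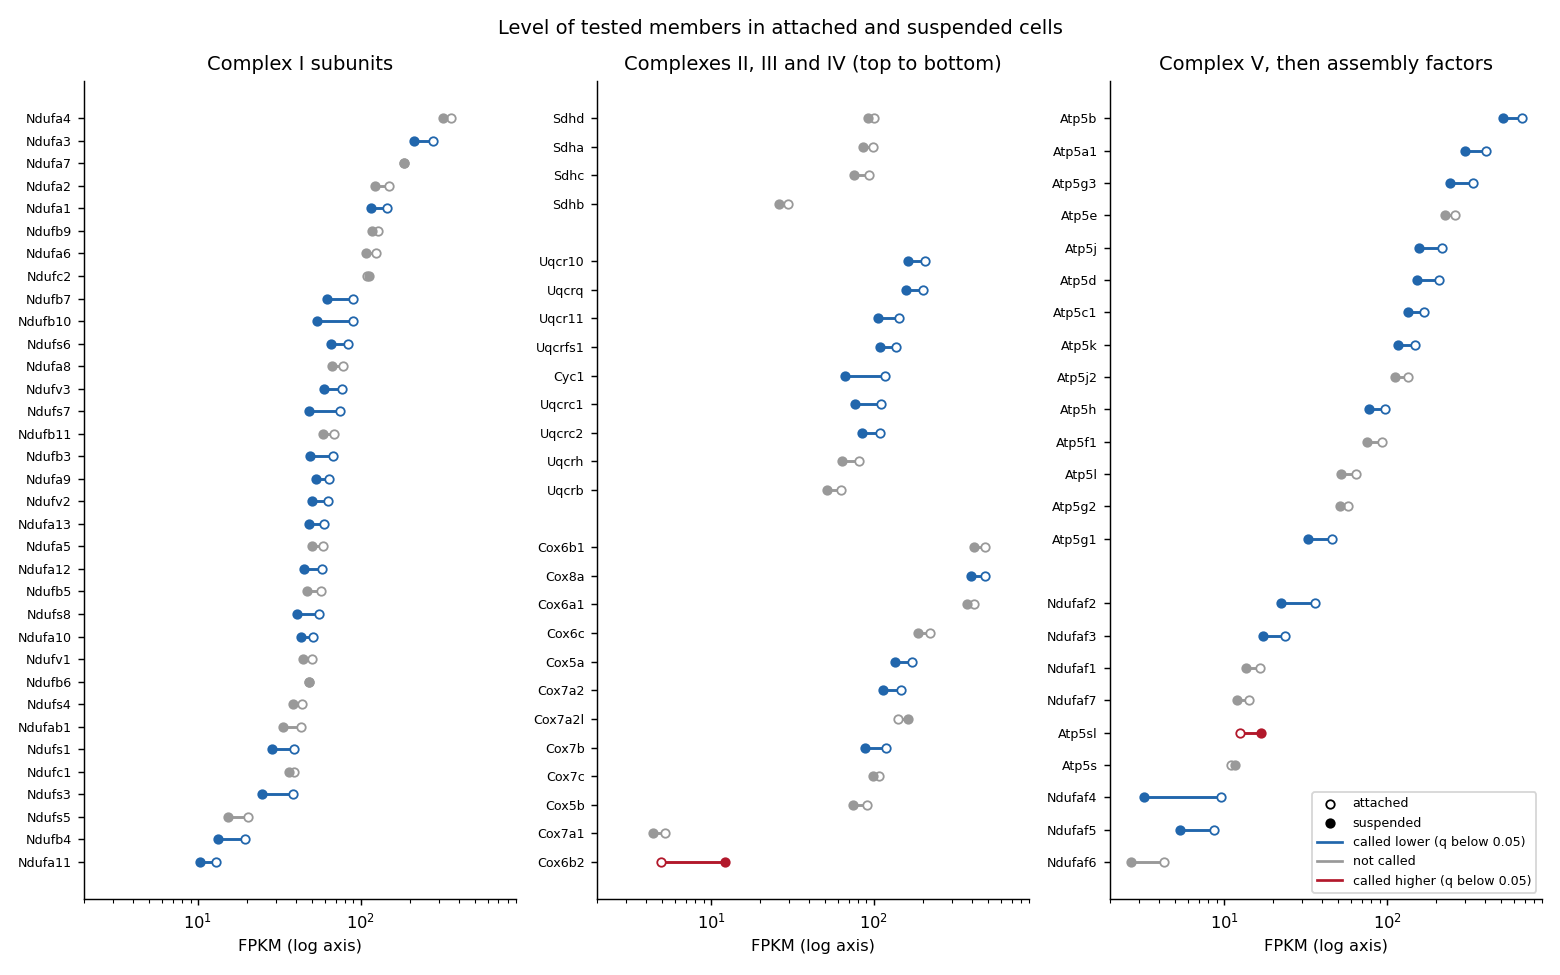
Tested members, with 1 left out, are shown with its FPKM on a log axis in attached (open circles) and suspended cells (filled circles), a single value each from the authors' deposited table, with lines coloured by call. Levels run from a few FPKM for Ndufaf6 to 676 FPKM for Atp5b, and most lines run to the left and are short beside the spread of levels between members.

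Levels differed far more between members than between conditions. Tested subunits ranged from 4.95 to 676 FPKM attached and from 4.38 to 512 FPKM suspended per the authors' deposited table. By complex, the median attached FPKM was 159 in complex V, 144 in complex IV, 116 in complex III, 95.8 in complex II and 64.0 in complex I per the authors' deposited table. Suspended medians kept this order, at 125, 124, 84.3, 80.6 and 50.4 FPKM per the authors' deposited table, although those of complexes V and IV were nearly equal. Across the 83 tested members, which share libraries, the attached and suspended FPKM had a Spearman correlation of 0.99. The log2 fold change had little relation to the mean level (Spearman 0.07 over the same 83). Of the 26 members with a mean of at least 120 FPKM 16 fell, with a median of -0.33, and of the 23 members from 20 to 60 FPKM 12 fell, with a median of -0.31. Among all tested rows of at least 20 FPKM 37.8% were called lower.

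**Figure D3:**
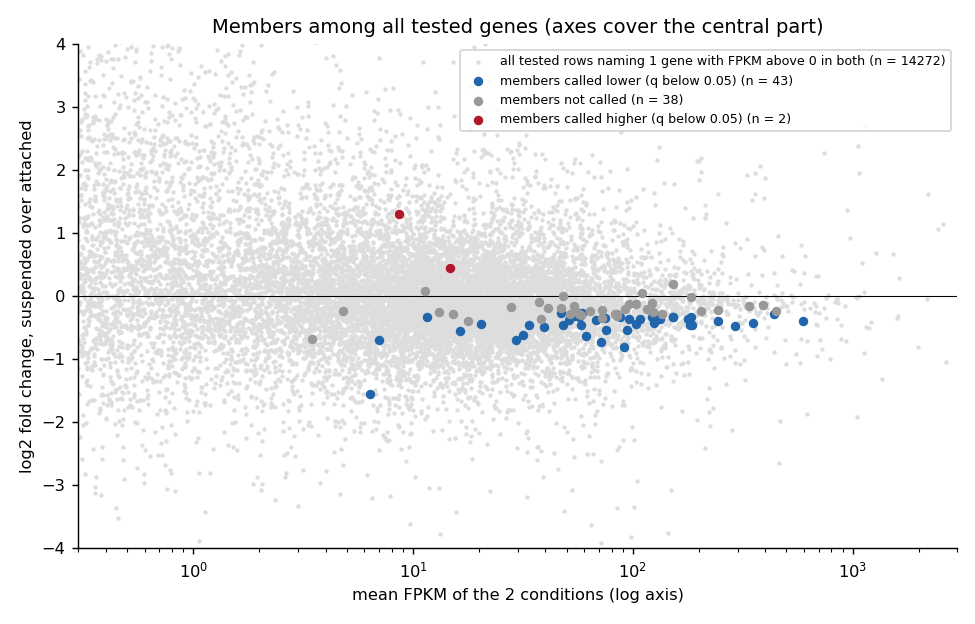
The log2 fold change (suspended over attached) is plotted against the mean FPKM of both conditions on a log axis, for all tested rows naming 1 gene (grey) and for the members (coloured by call). Members above 20 FPKM form a narrow band, with 68 of 71 under 0, inside the wider spread of all tested genes.

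The 9 assembly factors, at 4.30 to 36.2 FPKM in attached cells, had log2 fold changes from -1.56 to 0.44, with 4 called lower and 1 higher. The share called lower was 44.4%, against 26.3% of all tested rows and 37.8% of those of at least 20 FPKM. Ndufaf4, needed to build the peripheral arm of complex I, fell most of all members, from 9.53 to 3.23 FPKM (log2 -1.56, q = 0.000185) per the authors' deposited table. Its row covers chromosome 4, positions 24898083 to 24905001 (mm10). Its partner in assembly, Ndufaf3, fell from 23.5 to 17.2 FPKM (q = 0.00539) per the authors' deposited table. Ndufaf2 fell from 36.2 to 22.4 FPKM (q = 0.000185) and Ndufaf5, which modifies Ndufs7, from 8.66 to 5.35 FPKM (q = 0.00157) per the authors' deposited table. Ndufaf1 (16.7 and 13.6 FPKM, q = 0.11), Ndufaf6 (4.30 and 2.68 FPKM, q = 0.0773) and Ndufaf7 (log2 -0.25, q = 0.113) were lower without a call per the authors' deposited table. Atp5sl rose from 12.4 to 16.9 FPKM (q = 0.0269), and Atp5s was not called at 11.0 and 11.7 FPKM (q = 0.676) per the authors' deposited table. Although named for ATP synthase, Atp5sl is listed by RefSeq as Dmac2, a factor for the membrane arm of complex I, and Atp5s as Dmac2l.

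The mitochondrially encoded partners of these complexes went the other way. The row joining mt-Nd1 and mt-Nd2, of complex I, went from 2337 to 4400 FPKM (1.88-fold, q = 0.000185) per the authors' deposited table. For mt-Cytb, the mitochondrial subunit of complex III, the change was from 1076 to 3310 FPKM (3.08-fold, q = 0.000185) per the authors' deposited table. The long row that holds mt-Co1 to mt-Co3, mt-Atp6, mt-Atp8 and further mt-Nd genes went from 16607 to 30181 FPKM (1.82-fold, q = 0.0337) per the authors' deposited table. Complexes I and III were therefore lower in called nuclear rows and higher in called mitochondrial rows, and the long row cannot be divided among complexes I, IV and V. mt-Nd6 was not called at 436 and 1698 FPKM (q = 0.456) per the authors' deposited table. The scaling between libraries is not stated, and the part of the higher mitochondrial rows in the nuclear values was not tested.

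The promoters of the members were read from RefSeq (GRCm38.p6, the build of the files), as windows from 250 bases before to 50 after the gene start; 71 of the 83 tested members matched. They were searched on both strands for the motifs of 3 factors known for respiratory chain promoters: gcgca, any base and gcgc for NRF1, CCGGAAG for ETS factors such as GABP, and AAGATGGCG for YY1. No match of 1 motif overlapped a match of another. NRF1 letters were held by 18 of 71 tested members (25.4%), against 11.1% of tested genes and 5.19% of all genes with a promoter window. ETS letters were held by 17 (23.9%, against 19.3% and 9.93%) and YY1 letters by 8 (11.3%, against 3.45% and 1.64%). Among tested members 10 of 18 with NRF1 letters and 27 of 53 without were called lower, with median log2 fold changes of -0.34 and -0.31. For ETS the counts were 8 of 17 and 29 of 54, with medians of -0.31 and -0.32, and for YY1 4 of 8 and 33 of 63, with medians of -0.26 and -0.33. About as many members were thus called lower with the letters as without, in proportion, and no test was run. Stretches of 120 bases ending just before the RefSeq gene start are shown to let members of different calls be compared: 4 that fell, 2 of complex II that were not called, and Cox6b2, which rose. For Ndufb4, Atp5k, Ndufs3 and Sdha the GENCODE M21 annotation starts the gene within the stretch. Part of these stretches thus lies inside the gene by that annotation. That part holds the marked letters of Ndufs3, both matches of Ndufb4, the last match of Sdha and nearly all of the match of Atp5k. Capitals mark matches, which are of NRF1 in Ndufaf4, Ndufb4, Atp5k and Sdha, of ETS in Ndufs3, and of NRF1 and then ETS, on the opposite strand, in Sdhd.
Ndufaf4, chr4:24897963-24898082, plus strand: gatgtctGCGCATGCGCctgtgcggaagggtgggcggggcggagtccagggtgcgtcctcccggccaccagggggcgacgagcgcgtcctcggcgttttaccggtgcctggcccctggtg
Ndufb4, chr16:37654369-37654488, minus strand: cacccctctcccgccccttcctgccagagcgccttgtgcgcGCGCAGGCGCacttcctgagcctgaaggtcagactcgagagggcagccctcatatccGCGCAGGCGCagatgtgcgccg
Atp5k, chr5:108434400-108434519, minus strand: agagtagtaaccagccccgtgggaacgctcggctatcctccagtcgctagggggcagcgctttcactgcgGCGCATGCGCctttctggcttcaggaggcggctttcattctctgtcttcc
Ndufs3, chr2:90904722-90904841, minus strand: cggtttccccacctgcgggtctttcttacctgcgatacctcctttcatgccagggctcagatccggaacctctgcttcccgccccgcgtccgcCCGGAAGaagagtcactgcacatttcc
Sdha, chr13:74350241-74350360, minus strand: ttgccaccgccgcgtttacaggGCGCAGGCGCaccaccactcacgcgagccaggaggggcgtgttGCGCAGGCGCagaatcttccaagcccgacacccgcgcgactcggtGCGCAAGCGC
Sdhd, chr9:50603850-50603969, minus strand: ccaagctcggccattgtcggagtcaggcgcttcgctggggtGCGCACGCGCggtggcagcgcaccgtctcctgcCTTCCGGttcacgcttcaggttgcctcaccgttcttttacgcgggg
Cox6b2, chr7:4753095-4753214, minus strand: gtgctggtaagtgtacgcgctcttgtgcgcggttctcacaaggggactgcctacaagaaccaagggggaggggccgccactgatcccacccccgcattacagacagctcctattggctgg
Over the whole windows Sdha and Ndufb4 hold 3 NRF1 matches each, 1 of those of Ndufb4 lying before the stretch shown. The stretch of Cox6b2 holds none of the letters searched. That is common among members, as 37 of 71 tested ones (52.1%) held any of the 3 motifs in their windows. The share was 48.6% of members called lower and 55.9% of those not called lower, so the stretches shown are chosen examples. A match is a description of the letters, and binding was not measured.

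Other genes of the pathway were taken from fixed lists. Assembly factors outside the rule had 12 of 29 tested genes called lower, 3 higher and 14 not called, with a median log2 fold change of -0.35. Their share called lower was 41.4%, against 26.3% of all tested rows and 37.8% of those of at least 20 FPKM. Bcs1l, which inserts the Rieske protein into complex III, fell from 9.15 to 4.39 FPKM (q = 0.000185) per the authors' deposited table. Uqcc2, a complex III assembly factor, fell from 190 to 116 FPKM (q = 0.000185) per the authors' deposited table. Ecsit, which acts in complex I assembly, fell from 11.7 to 6.06 FPKM (q = 0.000185), while Coa4, a complex IV assembly factor, rose from 3.69 to 7.21 FPKM (q = 0.000185) per the authors' deposited table. Of the other factors, named after their values were seen, Cox14, Coa6, Cox18, Coa5 and Cox10 of complex IV also fell. So did Timmdc1 and Acad9 of complex I, while Cox15 of complex IV and Tmem126b of complex I rose. Factors of complexes I and IV thus included both directions. Electron carriers, coenzyme Q synthesis genes and ATP synthase partners had 5 of 15 called lower, 1 higher and 9 not called (median -0.29), a share called lower of 33.3% against 26.3% of all tested rows and 37.8% of those of at least 20 FPKM. Coq5, a methyltransferase of coenzyme Q synthesis, fell from 9.38 to 4.32 FPKM and Pdss2, which helps make its side chain, from 9.33 to 5.46 FPKM (q = 0.000185 each) per the authors' deposited table. Coq7, a hydroxylase of the same route, rose from 15.7 to 40.7 FPKM (2.60-fold, q = 0.000185) per the authors' deposited table.

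Of 13 TCA cycle enzymes, which supply the electrons, 10 fell and 0 rose (0 also at an unadjusted p below 0.05), with a median log2 fold change of -0.30. Idh3a, the catalytic subunit of NAD-dependent isocitrate dehydrogenase, fell from 107 to 46.1 FPKM (log2 -1.22, q = 0.000185) per the authors' deposited table. Ogdh, of the oxoglutarate dehydrogenase complex, fell from 71.2 to 49.7 FPKM (q = 0.000185) per the authors' deposited table. Suclg1, a subunit of succinyl-CoA ligase, fell from 75.6 to 54.7 FPKM (q = 0.000185) per the authors' deposited table. The share of these enzymes that fell, 76.9%, compares with 37.8% of all tested rows of at least 20 FPKM. Regulators of mitochondrial biogenesis did not lean 1 way, with 3 called higher, 2 lower and 6 not called of 11 tested (median -0.10). Their share called lower was 18.2%, and among all tested rows 26.3% were called lower and 24.8% higher. A split of this kind is thus not particular to the regulators. Ppargc1a (PGC-1alpha), a coactivator that raises expression of respiratory genes, rose from 1.03 to 6.90 FPKM (6.68-fold, q = 0.000185) per the authors' deposited table. Its relative Pprc1 fell from 15.6 to 4.45 FPKM (q = 0.000185) per the authors' deposited table. Polrmt, the RNA polymerase of mitochondria, fell from 11.9 to 4.78 FPKM (q = 0.000185) per the authors' deposited table. Gabpb1, a subunit of GABP, rose from 13.8 to 23.8 FPKM (q = 0.000185) per the authors' deposited table. Nrf1 itself, named after its values were seen, was not called at 14.3 and 11.5 FPKM (q = 0.0869) per the authors' deposited table.

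**Figure D4:**
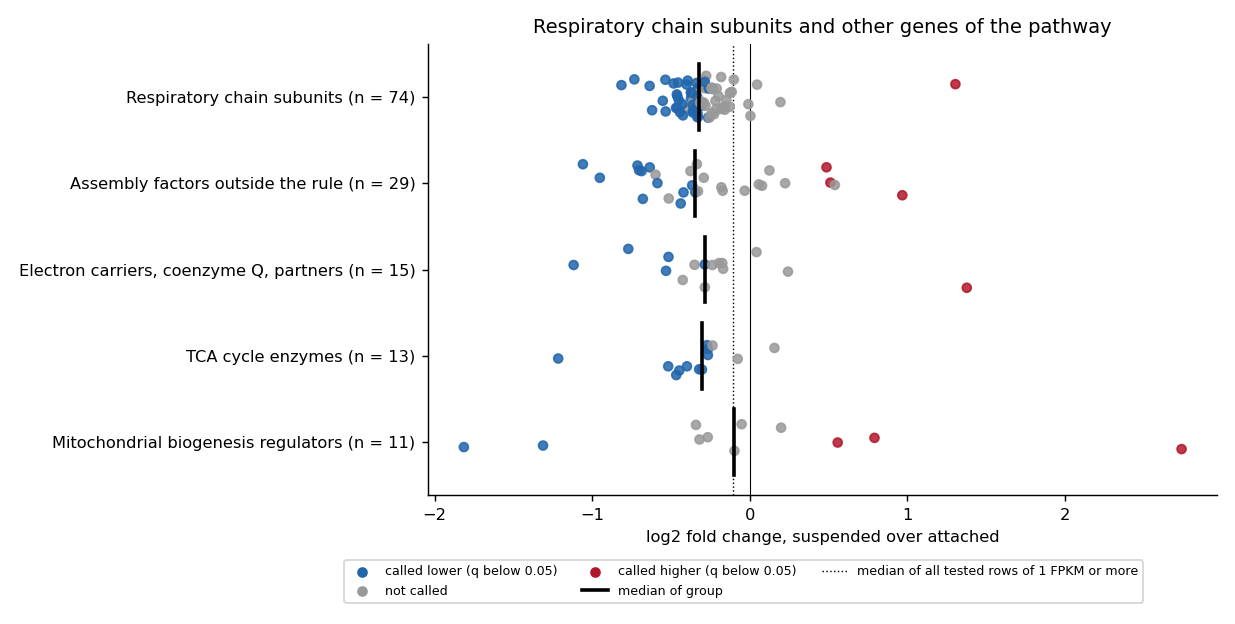
Each point is a tested gene of a list with its log2 of suspended over attached FPKM from the authors' deposited table, coloured by call; thick black bars mark list medians and the dotted line the median of all tested rows of at least 1 FPKM. The first 4 lists have medians from -0.35 to -0.29, while the 11 regulators are spread on both sides of 0.

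Several members have neighbours or copies that limit how far a value belongs to that gene alone. In the GENCODE M21 annotation 23 of 88 members found overlap another protein-coding gene, and whether counting used the strand is not known from the sources used here. One of these is Atp5j, which overlaps Gabpa, itself called higher (19.0 to 27.9 FPKM, q = 0.00241) per the authors' deposited table. A further limit is that 18 of 88 had a pseudogene copy at 95% identity over at least 200 bases, such as Atp5l with 8 copies and Atp5h with 4. Of the 49 tested members with neither, 22 were called lower and 1 higher, with a median log2 fold change of -0.28. Their share called lower was 44.9%, against 51.8% of all tested members and 37.8% of all tested rows of at least 20 FPKM. By complex their medians were -0.36 in III, -0.26 in V, -0.24 in I, -0.24 in IV and -0.19 in II. Complexes I, IV and V thus hardly differed in this set. In 3 rows that name several genes, a subunit could not be separated from its neighbours. The row with Ndufb8 was called lower (159 to 98.5 FPKM, q = 0.000185), and those with Atp5o (102 and 82.1 FPKM, q = 0.434) and Ndufb2 (70.0 and 60.3 FPKM, q = 0.52) were not called per the authors' deposited table.

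Markers fixed for the labelled cell type were present: all 7 kidney epithelial markers were tested and stood between 95.4 and 773 FPKM attached and between 30.9 and 752 FPKM suspended per the authors' deposited table. Of these 7, 2 rose and 4 fell, Pax2 and Pax8 among the latter. Endothelial markers (0 of 4 tested) summed to 0.353 attached and 0.298 FPKM suspended, and fibroblast or mesangial markers (2 of 5 tested) to 3.12 and 3.02 FPKM, with Acta2 called lower (2.90 to 1.10 FPKM) and Pdgfra called higher (0.155 to 1.81 FPKM), per the authors' deposited table. Leukocyte markers had 2 of 5 tested and both higher, summing to 24.9 and 47.4 FPKM, with Ptprc at 1.42 and 12.4 FPKM per the authors' deposited table. Podocyte markers were higher in sum (7.95 FPKM suspended), nearly all of it Podxl, which was called higher, while Nphs1 and Wt1 were listed at 0 in attached cells per the authors' deposited table. The part of these markers in the respiratory chain values was not tested, and in bulk RNA fewer cells of a type and less RNA per cell cannot be told apart.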

How the data were processed

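Messenger RNA of 6 libraries was sequenced, 3 attached and 3 suspended. TopHat, Bowtie, Cufflinks 1.0.3 and Cuffdiff with the build mm10 are named, per the submitters' processing notes; for settings, annotation and strand: not given in the sources used here. For each condition the authors deposited 1 FPKM. The authors also deposited a q-value, a p-value, a test score and a log2 fold change, per the file headers; the score was not used. The condition labels given in every row, which end in A and S, were read as attached and suspended. The unit FPKM was taken from the layout of the deposited table. Calls are the authors' q below 0.05 over 14748 tested rows. The smallest deposited p-value is 5e-05, shared by 10 members. Depth is unknown, and no new test was run.

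Members and lists were chosen with earlier results of these data known. The rule let every member be named; 1 called member and some marker genes are not reported here by name. Values are given for the other called members, extremes and paralogues, and for up to 4 called genes per list. Implied errors are the log2 fold change over the normal quantile of p. Row starts in the files count from 0 and are printed counted from 1. Near-identical copies were searched with megablast (BLAST+ 2.17.0) in GENCODE M21 transcripts. The calling steps were tested on simulated data. Alternatives covered the threshold, a 2-fold minimum, the adjustment, low values, pseudocounts, scaling, assembly factors, rows naming several genes and uncertain members. Software: pandas 2.3.3 and SciPy 1.17.1 with NumPy 2.4.6 under Python 3.11.15; figures with matplotlib 3.10.9.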

Additional observations from a re-analysis of the deposited data

How the results depend on the processing

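With q below 0.01 the members called lower went from 43 to 25 and those higher from 2 to 1, complex I from 19 to 8 and complex IV from 4 to 2. With a 2-fold minimum 1 member stayed called lower and 1 higher, and complexes I, III, IV and V each had 0 called lower. With subunits only, 1 was called higher, and counting assembly factors with complex V gave it 1 called higher. Members with an overlapping gene or a pseudogene copy were also left out, an alternative chosen after seeing the data. This gave 22 called lower and 1 higher, with 9 called lower in complex I and 2 in complex V. Fewer genes entered, and the share called lower was 44.9% against 51.8%, and 40.0% against 64.3% in complex V. The median log2 fold change became -0.24 in complex I and -0.26 in complex V, beside -0.24 in complex IV. After subtracting the median of all rows of at least 1 FPKM, the log2 fold changes of Ndufa7 and Ndufc1, neither of them called, turned to 0.098 and 0.0055. The same subtraction brought the median log2 fold change of complex I from -0.31 to -0.20, of complex II from -0.19 to -0.085 and of complex IV from -0.24 to -0.14, and of all members from -0.33 to -0.22, of complex III to -0.25 and of complex V to -0.24. Under the pseudocounts and the low-value filter these 6 medians stayed within 1.5 times their value. The lower median of rows with a mean of at least 20 FPKM, -0.17, was not subtracted. With the adjustment recomputed, 2 members just outside the threshold, Cox6b1 and Cox5b, passed, which took complex IV from 4 to 6 called lower. No paired analysis was possible because the files give 1 pooled value per condition, so replicate numbers have no values. Leaving out a replicate and limma on libraries were not run for the same reason. Without depth or spread between libraries, changes near the threshold cannot be weighed further.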
